A study of Danio rerio with 8 samples.

Results

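Insulin-positive (ins+) cells and sst1.1-positive (sst1.1+) cells sorted from the zebrafish pancreas were compared, each group holding 1 of the 2 fluorescent reporters. The comparison uses 5 of the 8 bulk RNA-seq libraries of the study, chosen by their labels: 2 ins+ libraries and 3 sst1.1+ libraries. The remaining 3 libraries, from cells positive for both reporters, entered the model for the shared spread, the filter and the scaling, and are not described. All fish were at 30 days post fertilization (dpf), were raised under normal growth and carried both transgenes, Tg(ins:BB1.0L) and TgBAC(sst1.1:memEGFP). The first uses the insulin promoter and the second puts membrane EGFP under the regulatory sequence of sst1.1, so each group is defined by promoter activity and not by hormone protein. After enzymatic dissociation the sorted cells were lysed and their RNA was copied by Smart-Seq2, a full-length cDNA method without molecular identifiers. Whether replicates are different fish, pools or sorting runs is not stated, and the p-values therefore reflect library-to-library spread that could be technical.

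Beta cells of the islet make insulin, sense glucose through its metabolism, and release the hormone by calcium-triggered exocytosis. Delta cells make somatostatin, a peptide that restrains the secretion of their neighbours. Zebrafish have several somatostatin genes, of which sst1.1 is the one that drives the reporter used here.

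Gene counts summed to 19861081 and 16948429 in the ins+ libraries and to 30374029, 24278780 and 23425079 in the sst1.1+ libraries, and 14923 to 16845 genes had a count. ERCC spike-ins, added RNA of known sequence, made up 0.0416 and 0.0501% of all counts in ins+ and 0.0244 to 0.0348% in sst1.1+. For these shares the total includes the ERCC and EGFP rows. On principal components of these 5 libraries the first axis (36.8% of variance) separated the groups, and the second (23.7%) separated the 2 ins+ libraries from each other. Several transcripts differed widely between the 2 ins+ libraries: ghrl, the ghrelin gene, stood at 4793 and 106 CPM in ins+ and 201, 82.6 and 2595 CPM in sst1.1+, and gip, the gene of an incretin hormone, at 1932 and 44.2 CPM in ins+ and 5939, 15087 and 4630.3 CPM in sst1.1+. Neither was called (adjusted p = 0.747 and 0.367). The label of ins+ replicate 2 has a track number apart from those of the other 7 libraries. Where leaving out a library ended the call of a named gene, that is stated with the gene. Counts for gene lists after leaving out a library are given only for some of the larger moves. A fit that is not mentioned may also have moved a count. Fold values in parentheses give the size of a difference, in the direction that the levels show.

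The sort was checked on hormones and reporter. Insulin (ins) took 23.8 and 25.8% of gene counts in ins+ and 0.125, 0.0642 and 0.104% in sst1.1+ (247-fold, 7.95 ± 0.26 as log2 fold change ± SE, adjusted p = 4.23e-08). The sst1.1 gene took 5.56 and 4.35% in ins+ and 28.7, 25.4 and 28.9% in sst1.1+ (5.72-fold, -2.52 ± 0.15 as log2 fold change ± SE, adjusted p = 3.77e-06). In ins+ the sst1.1 level was 19.6 and 15.4% of the sst1.1+ mean, while ins in sst1.1+ stood at 0.257 to 0.518% of the ins+ mean. EGFP stood at 2.63 and 3.72% of its sst1.1+ mean in the ins+ libraries. The somatostatin genes sst1.2 and sst2 were not called (adjusted p = 0.788 and adjusted p = 0.559). The 6 hormone genes ins, sst1.1, sst1.2, sst2, gcga and gcgb together made up 35.7 and 35.8% of counts in ins+ and 34.9 to 38.5% in sst1.1+, so their total was similar while its makeup was not. Of the marker lists, 4 of 15 beta-cell markers were higher in ins+ (ins, mnx1, nkx6.2 and slc2a2) and 0 lower. Of 9 delta-cell markers, 3 were lower (sst1.1, HHEX and dkk3b) and 0 higher. Over all genes, 1.61% were called higher and 2.42% lower. The cells were sorted on reporters of ins and sst1.1, so the calls of these genes follow from the sort. The call of slc2a2 was not kept when either ins+ library was left out. In bulk samples, fewer cells of a type and less RNA per cell cannot be told apart, which holds for every level below.

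Of 16418 genes tested, 662 were called by edgeR's quasi-likelihood test at an adjusted p of 0.05 (4.03%). Of these, 265 were higher in ins+ (1.61%) and 397 lower (2.42%). Every called gene had normalised counts (CPM, gene counts scaled to a common library total after TMM adjustment) that did not overlap between the groups, a pattern that 33.3% of all tested genes showed. Lower calls were larger in fitted size: 123 genes were at least 8-fold lower and 35 at least 8-fold higher. Of the lower calls, 32 had 0 counts in both ins+ libraries and at least 1 CPM in every sst1.1+ library. In the reverse direction 5 did. The fitted folds of such genes depend on depth and are not measured, and the ins+ libraries were the shallower ones. The genes called higher had a median level of 95.4 CPM in ins+ and 31.4 CPM in sst1.1+, and those called lower had 15.8 CPM in ins+ and 62.3 CPM in sst1.1+. With ins left out, the genes called higher made up 9.82 and 10.3% of counts in ins+ and 4.73 to 5.26% in sst1.1+, and with sst1.1 left out, those called lower made up 5.15 and 4.26% in ins+ and 14.1 to 17.7% in sst1.1+.

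**Figure D1:**
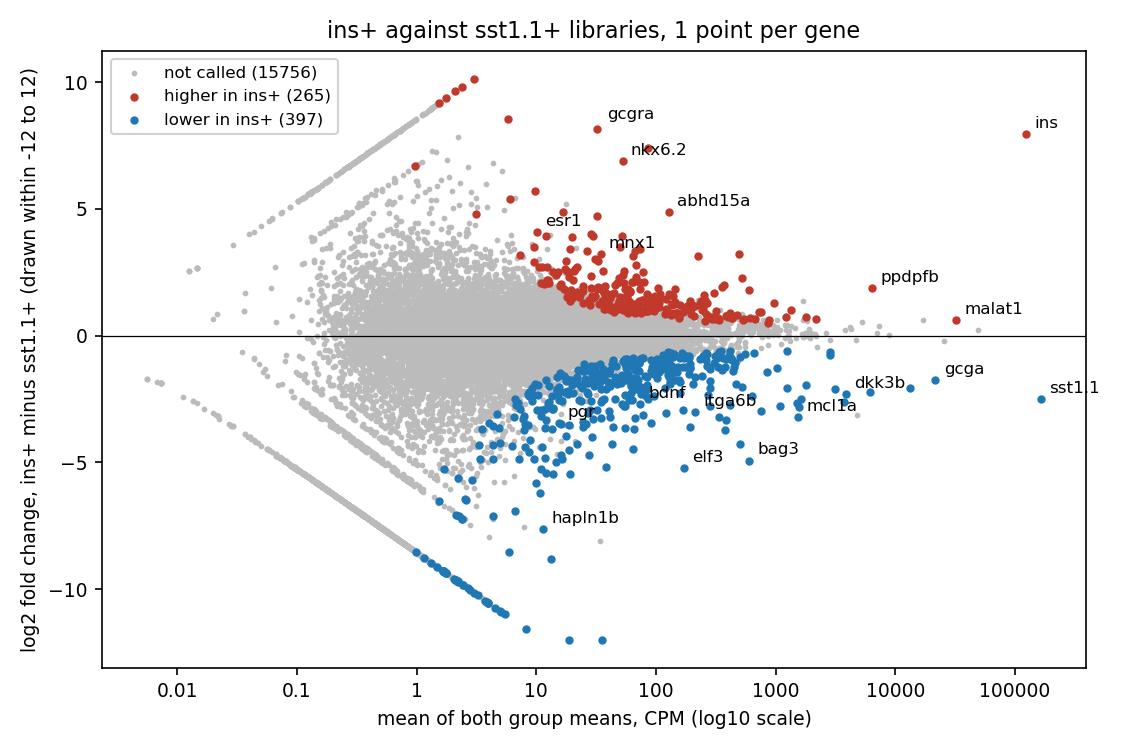
Each point is 1 of the 16418 tested genes, with the mean of both group means in CPM on a log axis and the log2 fold change of ins+ over sst1.1+ (values beyond 12 drawn at 12). The 265 genes called higher in ins+ and the 397 called lower are coloured, and the lower calls reach further from 0. For genes with 0 counts in 1 group the fold depends on depth and is not measured.

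Many calls were lost when a single library was left out. Each such fit also has fewer replicates, so a lost call need not mean that the difference rested on that library. Without ins+ replicate 1, 384 of the 662 genes were still called in the same direction, without ins+ replicate 2 257 were, and 220 were called in both cases (74 higher and 146 lower). None of the 662 changed sign in either case. Since CPM did not overlap between the groups for any called gene, this outcome was nearly fixed in advance and says little about reproducibility. Without sst1.1+ replicate 1, 406 of the 662 were still called, without sst1.1+ replicate 3 562 were, and without sst1.1+ replicate 2 the number fell between those without ins+ replicate 1 and without sst1.1+ replicate 1. Called under all 15 alternatives were 199 genes (74 higher and 125 lower), and examples below are drawn mainly from these.

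**Figure D2:**
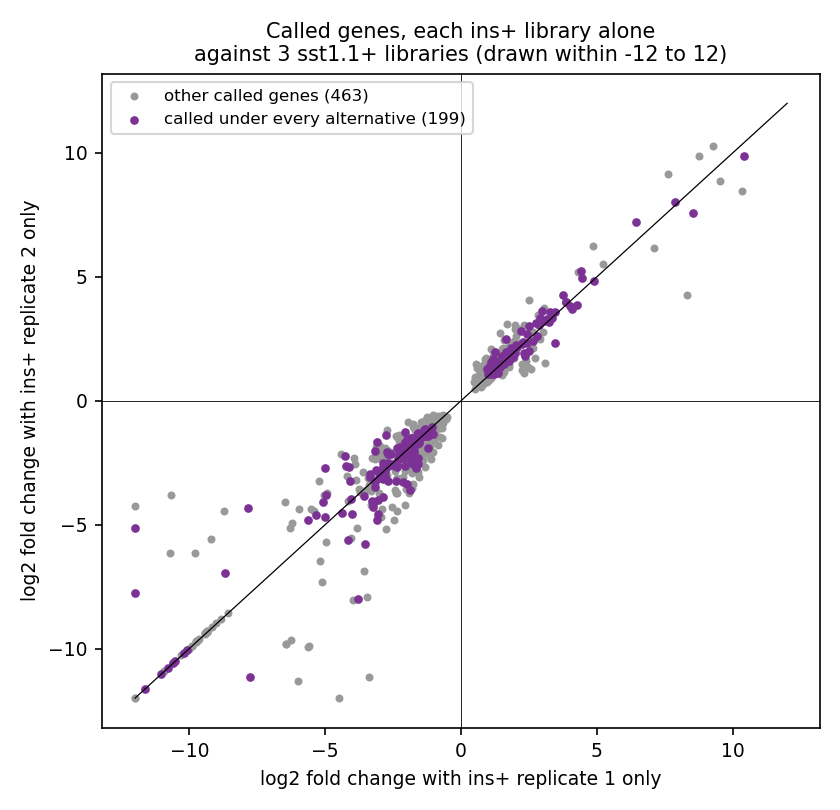
The 662 called genes, with the log2 fold change over the 3 sst1.1+ libraries computed with ins+ replicate 1 only on the horizontal axis and with ins+ replicate 2 only on the vertical axis (values beyond 12 drawn at 12). All 662 keep their sign, the 199 called under every alternative are purple, and the points lie in the upper right and lower left areas only. Since CPM did not overlap between the groups for any called gene, this pattern was nearly fixed in advance.

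Transcription factors that define the endocrine types differed in both directions. Among homeobox genes, 3 of 46 tested were higher in ins+ and 3 lower, beside 1.61 and 2.42% of all genes. The beta-cell factor mnx1 stood at 63.8 and 60.7 CPM in ins+ and 5.61, 7.19 and 7.47 CPM in sst1.1+ (9.21-fold, 3.20 ± 0.30 as log2 fold change ± SE, adjusted p = 0.000112), and nkx6.2, another homeobox gene used in beta-cell development, at 76.9 and 132 CPM in ins+ and 0.873, 0 and 1.81 CPM in sst1.1+ (117-fold, adjusted p = 0.000547). In the opposite direction, HHEX, a factor that delta cells require in the mouse, stood at 16.3 and 12.8 CPM in ins+ and 80.4, 49.2 and 56.9 CPM in sst1.1+ (4.27-fold, adjusted p = 0.00191). The cofactor gene pbx3b stood at 56.2 and 76.5 CPM in ins+ and 191, 208 and 269.8 CPM in sst1.1+ (3.36-fold, adjusted p = 0.000712). For all 4 genes the groups did not overlap, as for every called gene, and the calls held under every alternative. Among bHLH, SOX, FOX and other islet factors 4 of 96 were higher and 3 lower. The SoxC gene sox4a was 2.55-fold higher (adjusted p = 0.00254), and the serotonergic and endocrine factor fev stood at 52.7 and 61.4 CPM in ins+ and 101, 151 and 178 CPM in sst1.1+ (2.52-fold, adjusted p = 0.00896). The call of fev was lost without ins+ replicate 1 or ins+ replicate 2 (adjusted p = 0.0711 and 0.0539). The pancreatic factor gene pdx1 stood at 1163 and 1292 CPM in ins+ and 1658, 1466 and 1118 CPM in sst1.1+ and was not called (adjusted p = 0.554). Calls for homeobox genes numbered 6 higher and 4 lower without sst1.1+ replicate 3. With single libraries left out, the calls for bHLH, SOX, FOX and other factors were 2 higher and 2 lower without ins+ replicate 1, 2 higher and 0 lower without ins+ replicate 2 and 2 higher and 2 lower without sst1.1+ replicate 2.

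Of 62 nuclear receptor and retinoid genes, 1 was higher (1.61%) and 2 were lower (3.23%), shares near those of all genes tested (1.61 and 2.42%). The estrogen receptor gene esr1 stood at 21.9 and 16.6 CPM in ins+ and 1.21, 1.06 and 1.15 CPM in sst1.1+ (16.8-fold, 4.07 ± 0.45 as log2 fold change ± SE, adjusted p = 0.000378). The progesterone receptor gene pgr showed the reverse, at 3.79 and 1.35 CPM in ins+ and 37.8, 23.0 and 24.1 CPM in sst1.1+ (10.9-fold, adjusted p = 0.00494). nr0b1, the gene of an orphan receptor that represses steroidogenic factors, stood at 9.77 and 3.76 CPM in ins+ and 42.4, 42.0 and 32.5 CPM in sst1.1+ (5.75-fold, adjusted p = 0.00685). As for every called gene, the groups did not overlap for any of these 3 genes. The call of pgr was lost with limma-voom (adjusted p = 0.0753). Called members came to 2 higher and 2 lower without ins+ replicate 1 and 2 higher and 2 lower without sst1.1+ replicate 3.

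Prohormone processing and granule genes differed in both directions. Of 55 tested, 5 were higher (9.09%) and 6 lower (10.9%), beside 1.61 and 2.42% of all genes. The median log2 fold change was -0.10 beside -0.07 over all genes. Among the higher members, cpe, the gene of a carboxypeptidase that trims prohormones, stood at 2683 and 2676 CPM in ins+ and 1746, 1681 and 1696 CPM in sst1.1+ (1.57-fold, adjusted p = 0.00587), and scg5, a chaperone of the convertase PC2, at 237 and 288 CPM in ins+ and 126, 146 and 109 CPM in sst1.1+ (2.07-fold, adjusted p = 0.00589). A second gene entry named scg5 was also called higher (log2 fold change 2.24 without ins+ replicate 1 and 1.94 without ins+ replicate 2). The call of this second entry did not hold under every alternative. Granins, acidic proteins packed into granules, were among the lower: chga stood at 219 and 177 CPM in ins+ and 802, 768 and 630.0 CPM in sst1.1+ (3.71-fold, -1.89 ± 0.17 as log2 fold change ± SE, adjusted p = 8.44e-05). The secretogranin copies scg2a and scg2b were 3.53-fold and 2.40-fold lower (adjusted p = 0.000479 and adjusted p = 0.000286). The calls of chga, scg2a and scg2b held under every alternative. Another granin gene, chgb, was not called (log2 fold change 0.83, adjusted p = 0.403). The call of cpe was lost without ins+ replicate 2 (adjusted p = 0.0553). The call of the first scg5 entry was lost without ins+ replicate 2. Leaving out a library moved the calls to 3 higher and 6 lower without ins+ replicate 1, 0 higher and 5 lower without ins+ replicate 2, 3 higher and 5 lower without sst1.1+ replicate 1 and 3 higher and 5 lower without sst1.1+ replicate 2.

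The machinery of vesicle fusion differed in which family members were high. Of 85 tested SNARE and fusion genes, 6 were higher in ins+ (7.06%) and 4 lower (4.71%), beside 1.61 and 2.42% of all genes. The vesicle GTPase gene rab3c stood at 92.5 and 102 CPM in ins+ and 8.87, 1.46 and 8.88 CPM in sst1.1+ (15.19-fold, adjusted p = 0.0022), and the complexin gene cplx2, whose product clamps assembled SNAREs, at 24.8 and 37.1 CPM in ins+ and 6.05, 5.69 and 4.15 CPM in sst1.1+ (5.83-fold, adjusted p = 0.00305). Another complexin gene, cplx2l, went the other way at 109.5 and 103 CPM in ins+ and 288, 259.6 and 201 CPM in sst1.1+ (2.35-fold, adjusted p = 0.00345). The plasma membrane SNARE gene stx2b stood at 3.29 and 3.52 CPM in ins+ and 59.09, 51.7 and 53.9 CPM in sst1.1+ (16.1-fold, -4.01 ± 0.36 as log2 fold change ± SE, adjusted p = 7.32e-05), and the vesicle protein gene syt4 at 32.1 and 29.2 CPM in ins+ and 93.0, 100.02 and 106 CPM in sst1.1+ (3.25-fold, adjusted p = 0.00075). A further complexin gene, listed as CPLX1 (2 of 2), stood at 0.698 and 0.881 CPM in ins+ and 22.6, 25.1 and 20.5 CPM in sst1.1+ (28.7-fold, adjusted p = 0.000296). These 6 genes were called under every alternative. The active-zone scaffold gene rims2a was 1.59-fold higher (adjusted p = 0.015). The call of rims2a was lost without ins+ replicate 1, ins+ replicate 2 or sst1.1+ replicate 2 (adjusted p = 0.0669, 0.103 and 0.0701). Calls numbered 3 higher and 4 lower without ins+ replicate 1, 2 higher and 3 lower without ins+ replicate 2 and 2 higher and 3 lower without sst1.1+ replicate 2.

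**Figure D3:**
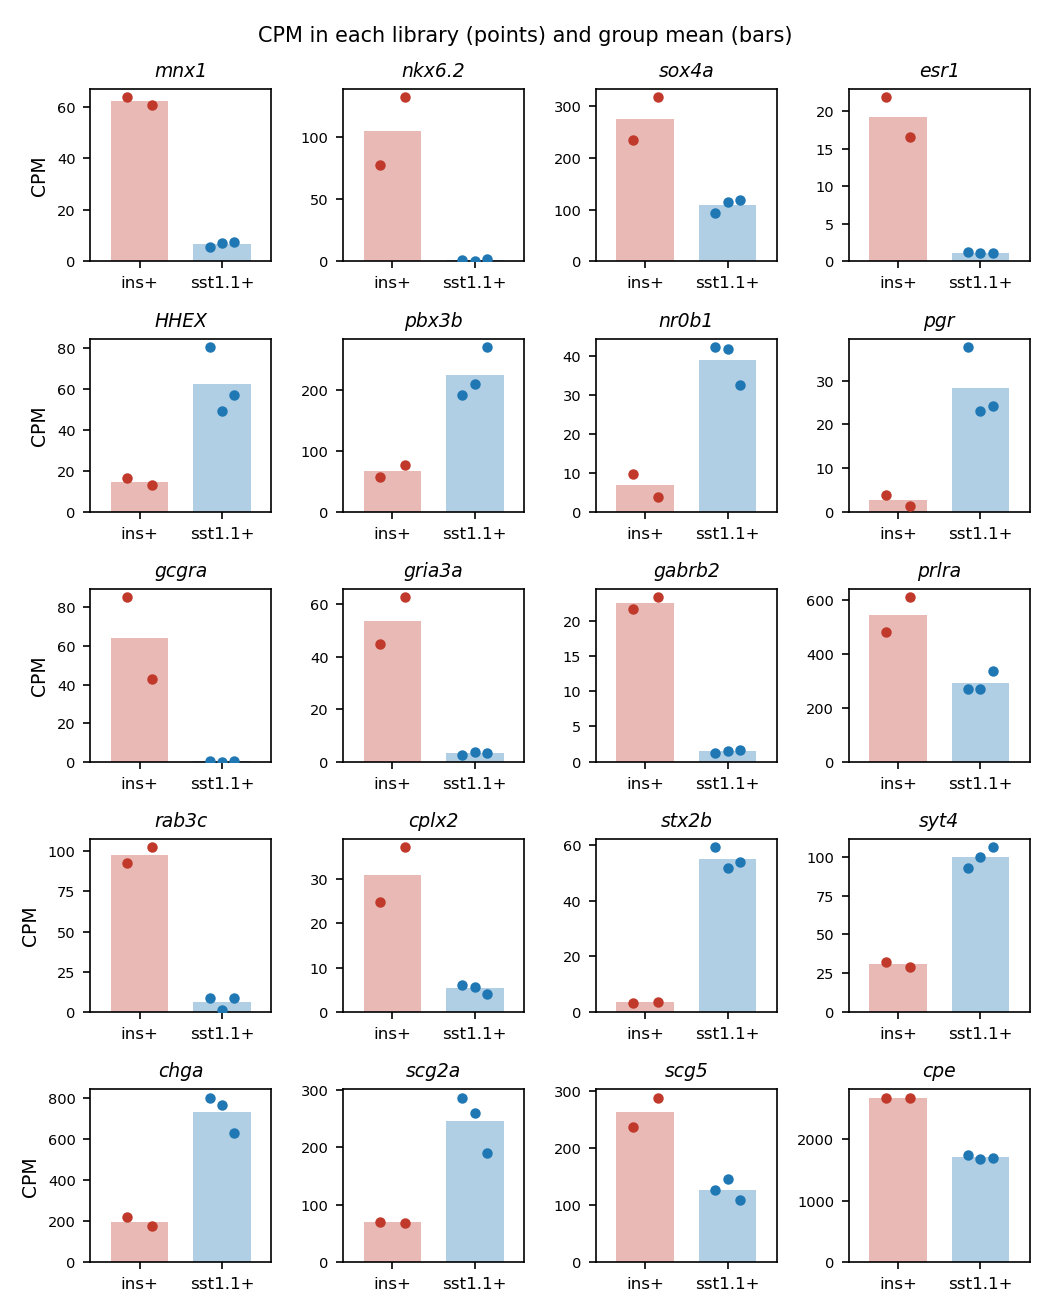
CPM of 20 transcription factor, receptor and secretion genes in each library, as points, with the group mean as a bar, for the 2 ins+ and 3 sst1.1+ libraries. In every panel the ins+ points lie all above or all below the sst1.1+ points. All 20 genes were called, and no called gene overlapped, so this pattern was fixed by the choice of genes. Of all tested genes, 33.3% showed it.

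Receptors for transmitters and hormones differed at a few genes by large factors. The glucagon receptor gene gcgra stood at 85.4 and 43.0 CPM in ins+ and 0.235, 0 and 0.442 CPM in sst1.1+ (282-fold, 8.14 ± 0.73 as log2 fold change ± SE, adjusted p = 8.1e-05). The sst1.1+ values rest on 7, 0 and 10 counts. Of 56 genes of glutamate, GABA, glycine and acetylcholine receptors and their partners, 3 were higher (5.36%) and 1 lower (1.79%), beside 1.61 and 2.42% of all genes. The AMPA glutamate receptor subunit gene gria3a stood at 44.8 and 62.7 CPM in ins+ and 2.75, 3.86 and 3.27 CPM in sst1.1+ (16.3-fold, adjusted p = 8.44e-05). The GABA-A subunit gene gabrb2 stood at 21.7 and 23.3 CPM in ins+ and 1.18, 1.54 and 1.72 CPM in sst1.1+ (15.17-fold, adjusted p = 0.000879). The remaining higher member, abat, encodes the transaminase that breaks GABA down and stood at 56.8 and 59.4 CPM in ins+ and 13.8, 14.8 and 17.7 CPM in sst1.1+ (3.76-fold, adjusted p = 0.002), so a GABA receptor subunit and the GABA-degrading enzyme were both higher in ins+. The call of the 1 lower member, the muscarinic receptor gene chrm4a, was lost in each of the 5 cases with a library left out. Of 72 peptide and monoamine receptor genes, 3 were higher (4.17%) and 3 lower (4.17%). Besides gcgra, the prolactin receptor gene prlra stood at 480.0 and 611 CPM in ins+ and 271, 269 and 337 CPM in sst1.1+ (1.87-fold, adjusted p = 0.00939). The call of prlra was lost without ins+ replicate 2 (adjusted p = 0.118). With single libraries left out, the calls for peptide and monoamine receptors were 1 higher and 1 lower without ins+ replicate 2.

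Among channels, 4 of 52 potassium channel genes were higher (7.69%) and 2 lower (3.85%), beside 1.61 and 2.42% of all genes. The BK auxiliary subunit gene matched as KCNMB2 (listed as si:ch211-247n2.1) stood at 40.8 and 35.6 CPM in ins+ and 2.86, 7.44 and 7.25 CPM in sst1.1+ (6.55-fold, adjusted p = 0.00306), and kcnh6a, an ERG-type channel gene, at 3.69 and 2.99 CPM in ins+ and 24.1, 16.1 and 33.0 CPM in sst1.1+ (7.28-fold, adjusted p = 0.00585). The call of kcnh6a was lost without ins+ replicate 2 (adjusted p = 0.0593) and with limma-voom (adjusted p = 0.124). The sodium channel beta subunit gene scn3b stood at 239 and 213 CPM in ins+ and 48.5, 52.2 and 88.5 CPM in sst1.1+ (3.59-fold, adjusted p = 0.00238). For cabp5a, of a family that regulates voltage-gated calcium channels, the levels stood at 23.3 and 40.9 CPM in ins+ and 1.48, 0.284 and 1.46 CPM in sst1.1+ (29.7-fold, adjusted p = 0.000548). Called members for potassium channels came to 2 higher and 2 lower without ins+ replicate 1, 1 higher and 1 lower without ins+ replicate 2 and 2 higher and 2 lower without sst1.1+ replicate 2.

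Calcium signalling genes were called in both directions. Of 104 tested, 9 were higher (8.65%) and 3 lower (2.88%), beside 1.61 and 2.42% of all genes. The list's median log2 fold change was 0.13. The calcineurin regulator rcan2 stood at 54.7 and 61.9 CPM in ins+ and 8.63, 5.81 and 8.17 CPM in sst1.1+ (7.72-fold, 2.95 ± 0.29 as log2 fold change ± SE, adjusted p = 0.000162), whereas its relative rcan1a stood at 18.002 and 18.7 CPM in ins+ and 49.7, 45.9 and 61.6 CPM in sst1.1+ (2.86-fold, adjusted p = 0.00605). The kinase gene camk2g1, a calmodulin-dependent kinase of the CaMKII family, was 2.95-fold higher (adjusted p = 0.000746), and dgkaa, a diacylglycerol kinase gene, 5.73-fold higher (adjusted p = 0.00164). The call of rcan1a was lost without ins+ replicate 2 (adjusted p = 0.0511). Leaving out a library moved the calls to 5 higher and 1 lower without ins+ replicate 1, 4 higher and 1 lower without ins+ replicate 2, 4 higher and 1 lower without sst1.1+ replicate 1 and 4 higher and 1 lower without sst1.1+ replicate 2.

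In cyclic AMP signalling 5 of 103 genes were higher (4.85%) and 2 lower (1.94%), beside 1.61 and 2.42% of all genes. RGS proteins speed the shut-off of G proteins: rgs8 stood at 147 and 208 CPM in ins+ and 64.2, 75.4 and 54.0 CPM in sst1.1+ (2.75-fold, adjusted p = 0.0032) and rgs4 at 298 and 442 CPM in ins+ and 146, 159 and 117 CPM in sst1.1+ (2.63-fold, adjusted p = 0.00443). The most abundant RGS transcript by CPM, rgs5a, was lower at 2356 and 2086 CPM in ins+ and 3255, 3555 and 3553 CPM in sst1.1+ (1.56-fold, adjusted p = 0.00944). The gene listed as PKIB (2 of 2), in no list, has the name of an inhibitor of protein kinase A and stood at 96.0 and 149.6 CPM in ins+ and 11.09, 14.5 and 10.7 CPM in sst1.1+ (10.12-fold, adjusted p = 5.8e-05). The call of rgs4 was lost without ins+ replicate 2 (adjusted p = 0.06). The call of rgs5a was lost without ins+ replicate 2 (adjusted p = 0.116). Calls numbered 1 higher and 0 lower without ins+ replicate 2, 2 higher and 1 lower without sst1.1+ replicate 1 and 3 higher and 1 lower without sst1.1+ replicate 2.

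Wnt pathway calls were all in 1 direction: 5 of 57 tested genes were lower in ins+ (8.77%) and 0 were higher. Over all genes 2.42% were lower and 1.61% higher. The median over the list was -0.32 on the log2 scale. The secreted Dickkopf-family gene dkk3b, itself a marker on the delta-cell list, stood at 1538 and 1035 CPM in ins+ and 6503, 6496 and 6278 CPM in sst1.1+ (4.99-fold, -2.32 ± 0.17 as log2 fold change ± SE, adjusted p = 1.88e-05). The secreted Wnt inhibitor gene wif1 stood at 175 and 149 CPM in ins+ and 427, 406 and 378 CPM in sst1.1+ (2.49-fold, adjusted p = 0.000684). The R-spondin receptor gene lgr4 stood at 15.9 and 10.101 CPM in ins+ and 66.3, 51.8 and 51.4 CPM in sst1.1+ (4.34-fold, adjusted p = 0.00231), and ctnnb1, the gene of beta-catenin, at 70.9 and 74.2 CPM in ins+ and 288, 242 and 197 CPM in sst1.1+ (3.34-fold, adjusted p = 0.00123). The members include inhibitors and activators of the pathway, and these 4 were called under every alternative. The feedback target axin2 was 4.998-fold lower (adjusted p = 0.0241). The call of axin2 was lost without ins+ replicate 1, ins+ replicate 2, sst1.1+ replicate 1 or sst1.1+ replicate 2 (adjusted p = 0.106, 0.0694, 0.0651 and 0.0569) and with limma-voom (adjusted p = 0.164) and when the 2 groups were fitted alone.

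Growth factor genes showed a ligand on each side. Of 121 tested, 3 were higher (2.48%) and 8 lower (6.61%), beside 1.61 and 2.42% of all genes. The angiogenic factor gene vegfab stood at 356 and 408 CPM in ins+ and 177, 155 and 139.7 CPM in sst1.1+ (2.43-fold, adjusted p = 0.00111), and the EGF-family ligand gene btc, betacellulin, at 76.9 and 105 CPM in ins+ and 17.4, 31.2 and 31.4 CPM in sst1.1+ (3.42-fold, adjusted p = 0.00484). The neurotrophin gene bdnf was lower at 17.5 and 22.0 CPM in ins+ and 138, 132 and 113 CPM in sst1.1+ (6.46-fold, -2.69 ± 0.22 as log2 fold change ± SE, adjusted p = 4.42e-05), and so was gfra1a, a GDNF co-receptor gene, at 2.69 and 4.82 CPM in ins+ and 51.6, 44.4 and 40.8 CPM in sst1.1+ (12.17-fold, adjusted p = 0.000864). The gene fgfrl1a, a decoy-like FGF receptor, had 0 counts in both ins+ libraries and 10.9, 6.42 and 6.45 CPM in sst1.1+. The call of btc was lost without ins+ replicate 2 (adjusted p = 0.055).

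Among other islet and gut hormone genes, 1 of 14 tested was lower (pyyb, 7.14%) and 0 were higher, beside 2.42 and 1.61% of all genes. The peptide YY gene pyyb stood at 153 and 189.9 CPM in ins+ and 1275, 1327 and 1394 CPM in sst1.1+ (7.77-fold, adjusted p = 0.00036), and pnoca, a prepronociceptin gene, at 1504 and 859 CPM in ins+ and 3837, 6588 and 4884 CPM in sst1.1+ (4.32-fold, adjusted p = 0.00183). The endothelin gene edn1 stood at 1.65 and 1.88 CPM in ins+ and 19.5, 23.0 and 23.8 CPM in sst1.1+ (12.5-fold, adjusted p = 0.00519). The glucagon genes gcga and gcgb stood at 11425 and 8442 CPM in ins+ and 19893, 40486 and 39724 CPM in sst1.1+ for gcga (3.36-fold, adjusted p = 0.00379) and were 4.24-fold lower for gcgb (adjusted p = 0.0106). The call of edn1 was lost with limma-voom (adjusted p = 0.0574). The call of gcga was lost without ins+ replicate 2 (adjusted p = 0.0569), and the call of gcgb was lost without ins+ replicate 2 (adjusted p = 0.0713).

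Axon guidance genes, which also steer cell contact outside the nervous system, gave 4 higher (4.55%) and 0 lower calls among 88 tested. Over all genes 1.61% were higher and 2.42% lower. The list also counts the chemokine gene cxcl14. The chemokine gene cxcl14 stood at 97.8 and 132 CPM in ins+ and 17.8, 11.3 and 10.3 CPM in sst1.1+ (8.72-fold, adjusted p = 7.1e-05) and nell2a, a secreted guidance ligand gene, at 27.5 and 34.8 CPM in ins+ and 4.30, 5.04 and 2.74 CPM in sst1.1+ (7.73-fold, adjusted p = 0.00266). The Eph receptor gene epha4a was 2.68-fold higher (adjusted p = 0.00398), and the ephrin ligand gene efnb2a 2.86-fold higher (adjusted p = 0.00615). All 4 calls held under every alternative. With single libraries left out, the calls were 4 higher and 2 lower without ins+ replicate 1, 4 higher and 2 lower without ins+ replicate 2 and 7 higher and 0 lower without sst1.1+ replicate 3.

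Adhesion to matrix and neighbours differed as well. The laminin-binding integrin gene itga6b stood at 51.3 and 41.9 CPM in ins+ and 372, 389 and 371 CPM in sst1.1+ (8.09-fold, -3.02 ± 0.17 as log2 fold change ± SE, adjusted p = 2.26e-06), and bcam, an immunoglobulin-family laminin receptor gene, at 2.99 and 0.881 CPM in ins+ and 21.0, 25.7 and 29.2 CPM in sst1.1+ (12.9-fold, adjusted p = 0.00322). The hyaluronan link protein gene hapln1b stood at 0.0499 and 0.176 CPM in ins+ and 14.8, 26.3 and 27.4 CPM in sst1.1+ (adjusted p = 0.000329). The ins+ values are 1 and 3 counts, at or under the floor of 3 counts per library, so no fold is given. Both itga6b and bcam were therefore lower in ins+, while itga6a, the other copy of the integrin gene, was not called (log2 fold change 0.50, adjusted p = 0.395). The immunoglobulin-family genes nptna and bsg, neuroplastin and basigin, were higher (6.91-fold, adjusted p = 9.91e-05 and 3.09-fold, adjusted p = 0.0032). In total 1 of 104 matrix genes was higher (0.962%) and 5 were lower (4.81%). Of 107 cell adhesion genes 4 were higher (3.74%) and 4 lower (3.74%). Over all genes 1.61% were higher and 2.42% lower. Called members for matrix genes came to 0 higher and 4 lower without ins+ replicate 1, 0 higher and 3 lower without ins+ replicate 2, 0 higher and 4 lower without sst1.1+ replicate 1, 0 higher and 4 lower without sst1.1+ replicate 2 and 2 higher and 4 lower without sst1.1+ replicate 3. Leaving out a library moved the calls for cell adhesion to 2 higher and 3 lower without ins+ replicate 1, 2 higher and 1 lower without ins+ replicate 2, 2 higher and 2 lower without sst1.1+ replicate 1 and 2 higher and 3 lower without sst1.1+ replicate 2.

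**Figure D4:**
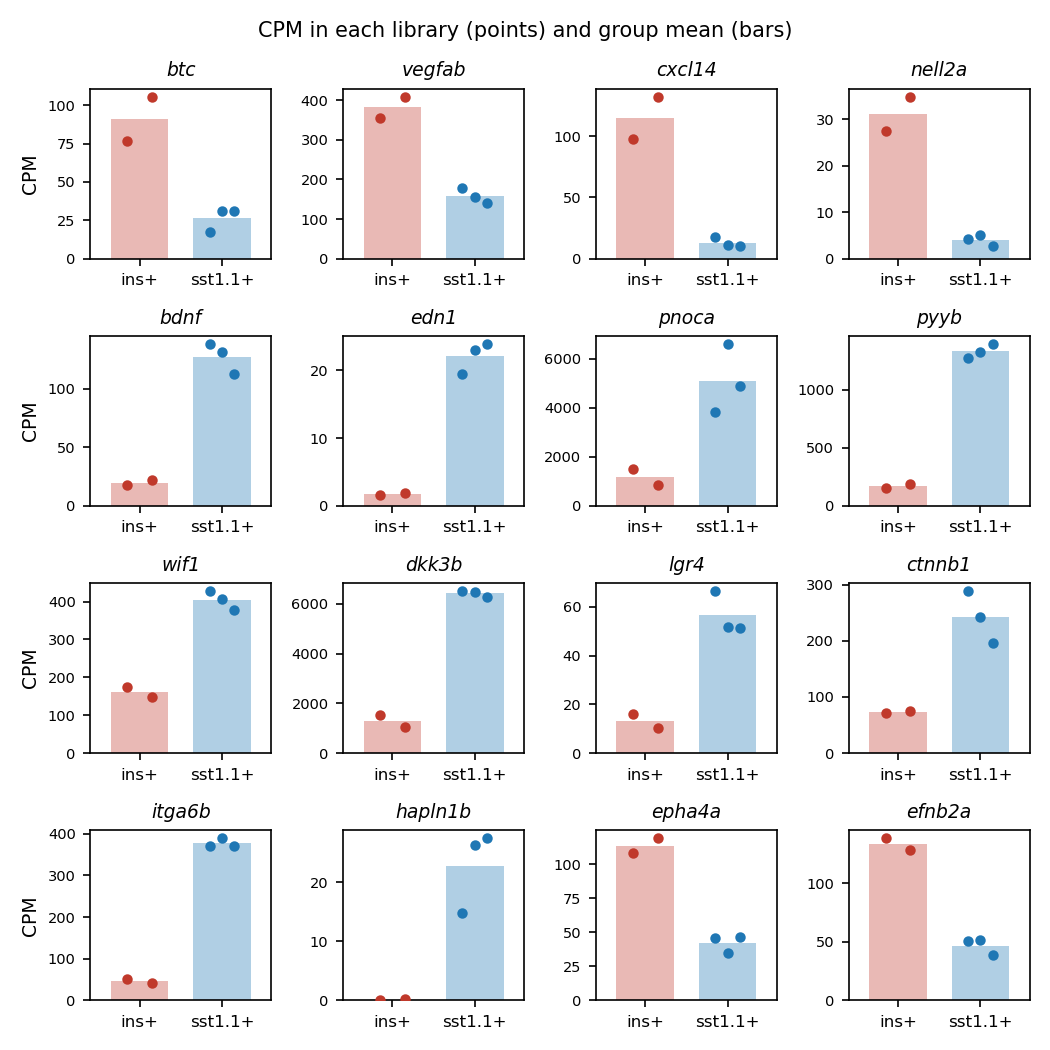
CPM of 16 ligand, receptor, Wnt and adhesion genes in each library, as points, with the group mean as a bar, for the 2 ins+ and 3 sst1.1+ libraries. Guidance genes such as epha4a and the chemokine gene cxcl14 lie higher in ins+, and bdnf, pyyb, itga6b and the 4 Wnt genes lie lower.

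Amino acid transport differed by transporter. Of 146 solute carrier genes, 8 were higher (5.48%) and 6 lower (4.11%), beside 1.61 and 2.42% of all genes. The neutral amino acid transporter genes slc43a2b and slc43a2a, copies of 1 gene, were both higher: slc43a2b stood at 821 and 1030.3 CPM in ins+ and 236, 248 and 307 CPM in sst1.1+ (3.51-fold, adjusted p = 0.000155) and slc43a2a at 344 and 319 CPM in ins+ and 143, 103 and 172 CPM in sst1.1+ (2.38-fold, adjusted p = 0.00539). The sodium-coupled transporter gene slc38a11 stood at 88.2 and 95.2 CPM in ins+ and 10.6, 8.78 and 4.59 CPM in sst1.1+ (11.4-fold, adjusted p = 8.44e-05), whereas slc38a2 of the same family stood at 63.8 and 69.0 CPM in ins+ and 208, 208 and 193 CPM in sst1.1+ (3.05-fold, adjusted p = 0.000879). The exchanger gene slc7a8b was 4.37-fold higher (adjusted p = 0.00117). Calls numbered 5 higher and 2 lower without ins+ replicate 2.

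Glucose and lipid metabolism changed at single genes. Of 124 glucose genes 5 were higher (4.03%) and 2 lower (1.61%), beside 1.61 and 2.42% of all genes. The pyruvate carboxylase gene pcxb, which feeds oxaloacetate into the TCA cycle, stood at 519.9 and 606 CPM in ins+ and 64.5, 192 and 191 CPM in sst1.1+ (3.77-fold, adjusted p = 0.00906), and the glucose transporter gene slc2a2 at 517 and 493 CPM in ins+ and 265, 299.9 and 332 CPM in sst1.1+ (1.69-fold, adjusted p = 0.012). The call of pcxb was lost without ins+ replicate 2 (adjusted p = 0.0657). The call of slc2a2 was lost without ins+ replicate 1 or ins+ replicate 2 (adjusted p = 0.0689 and 0.0665). The glucokinase gene gck stood at 724 and 817 CPM in ins+ and 646, 607 and 840.3 CPM in sst1.1+ and was not called (adjusted p = 0.729). Of 204 lipid genes 5 were higher (2.45%) and 12 lower (5.88%). The hydrolase-family gene abhd15a stood at 253 and 242 CPM in ins+ and 7.96, 10.9 and 6.58 CPM in sst1.1+ (29.2-fold, 4.87 ± 0.24 as log2 fold change ± SE, adjusted p = 1.34e-06), and vldlr, the very low density lipoprotein receptor gene, was 3.11-fold higher (adjusted p = 0.00316). Lower were sptlc2b, of sphingolipid synthesis, at 17.9 and 9.87 CPM in ins+ and 89.6, 100.3 and 92.1 CPM in sst1.1+ (6.77-fold, adjusted p = 0.000864), and dgat2, of triglyceride synthesis, at 2.59 and 10.6 CPM in ins+ and 58.5, 53.7 and 37.4 CPM in sst1.1+ (7.60-fold, adjusted p = 0.0106). With single libraries left out, the calls for glucose genes were 1 higher and 2 lower without ins+ replicate 1, 0 higher and 0 lower without ins+ replicate 2, 2 higher and 0 lower without sst1.1+ replicate 1 and 3 higher and 1 lower without sst1.1+ replicate 2. Called members for lipid genes came to 2 higher and 4 lower without ins+ replicate 2, 4 higher and 6 lower without sst1.1+ replicate 1 and 3 higher and 5 lower without sst1.1+ replicate 2.

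Redox genes were called in both directions: 7 of 112 redox genes were higher (6.25%) and 4 lower (3.57%), beside 1.61 and 2.42% of all genes. ndufa4l2a, a gene related to a respiratory chain subunit, stood at 859 and 932 CPM in ins+ and 91.7, 109 and 86.4 CPM in sst1.1+ (9.36-fold, adjusted p = 1.36e-06). The glutathione peroxidase gene gpx3 stood at 541 and 654 CPM in ins+ and 127, 176 and 149 CPM in sst1.1+ (3.97-fold, adjusted p = 9.09e-05), and txnipa, whose mammalian counterpart responds to glucose, at 372 and 390.2 CPM in ins+ and 83.3, 137 and 151 CPM in sst1.1+ (3.07-fold, adjusted p = 0.00274). The ER peroxiredoxin gene prdx4 was lower at 296 and 299 CPM in ins+ and 672, 676 and 534 CPM in sst1.1+ (2.11-fold, adjusted p = 0.00211). Leaving out a library moved the calls for redox genes to 4 higher and 5 lower without ins+ replicate 1 and 4 higher and 3 lower without ins+ replicate 2. Of 91 nuclear genes of the respiratory chain, 7 were lower (7.69%) and 0 higher. Calls for the respiratory chain numbered 0 higher and 2 lower without ins+ replicate 1, 0 higher and 0 lower without ins+ replicate 2, 0 higher and 3 lower without sst1.1+ replicate 1, 0 higher and 3 lower without sst1.1+ replicate 2 and 1 higher and 8 lower without sst1.1+ replicate 3.

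By number of genes, the immediate early and the heat shock lists held the most lower calls. Among immediate early genes 21 of 59 were lower (35.6%) and 2 higher (3.39%), beside 2.42 and 1.61% of all genes. The median log2 fold change of the list was -1.06. Among heat shock and chaperone genes 20 of 73 were lower (27.4%) and 0 higher (median -0.67). Among unfolded protein response genes 12 of 67 were lower (17.9%) and 1 higher (1.49%, median -0.59). The activating transcription factor gene atf3 stood at 60.4 and 40.4 CPM in ins+ and 859, 1049 and 993 CPM in sst1.1+ (19.2-fold, adjusted p = 1.62e-06), the chaperone gene hspa4a at 77.8 and 62.9 CPM in ins+ and 731, 679 and 699 CPM in sst1.1+ (9.99-fold, adjusted p = 1.62e-06), and herpud1, of ER-associated degradation, at 6.98 and 18.8 CPM in ins+ and 116, 126 and 124 CPM in sst1.1+ (9.502-fold, adjusted p = 0.000694). The anti-apoptotic genes mcl1a and mcl1b were both lower: mcl1a stood at 274 and 333 CPM in ins+ and 3145, 2776 and 2460.2 CPM in sst1.1+ (9.21-fold, adjusted p = 1.36e-06) and mcl1b was 2.09-fold lower (adjusted p = 0.0226). The call of mcl1b was lost without ins+ replicate 1 or sst1.1+ replicate 1 (adjusted p = 0.141 and 0.0681). Beside these, mitochondrially encoded genes made up 3.49 and 3.45% of counts in ins+ and 2.89 to 3.44% in sst1.1+, and the part of RNA quality in the result was not tested. Without sst1.1+ replicate 2, 15 immediate early genes and 16 heat shock and chaperone genes were still called lower. With single libraries left out, the calls for immediate early genes were 1 higher and 13 lower without ins+ replicate 2 and 1 higher and 18 lower without sst1.1+ replicate 1. Called members for the unfolded protein response came to 0 higher and 10 lower without ins+ replicate 1, 0 higher and 10 lower without ins+ replicate 2, 0 higher and 8 lower without sst1.1+ replicate 1, 0 higher and 9 lower without sst1.1+ replicate 2 and 0 higher and 13 lower without sst1.1+ replicate 3.

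**Figure D5:**
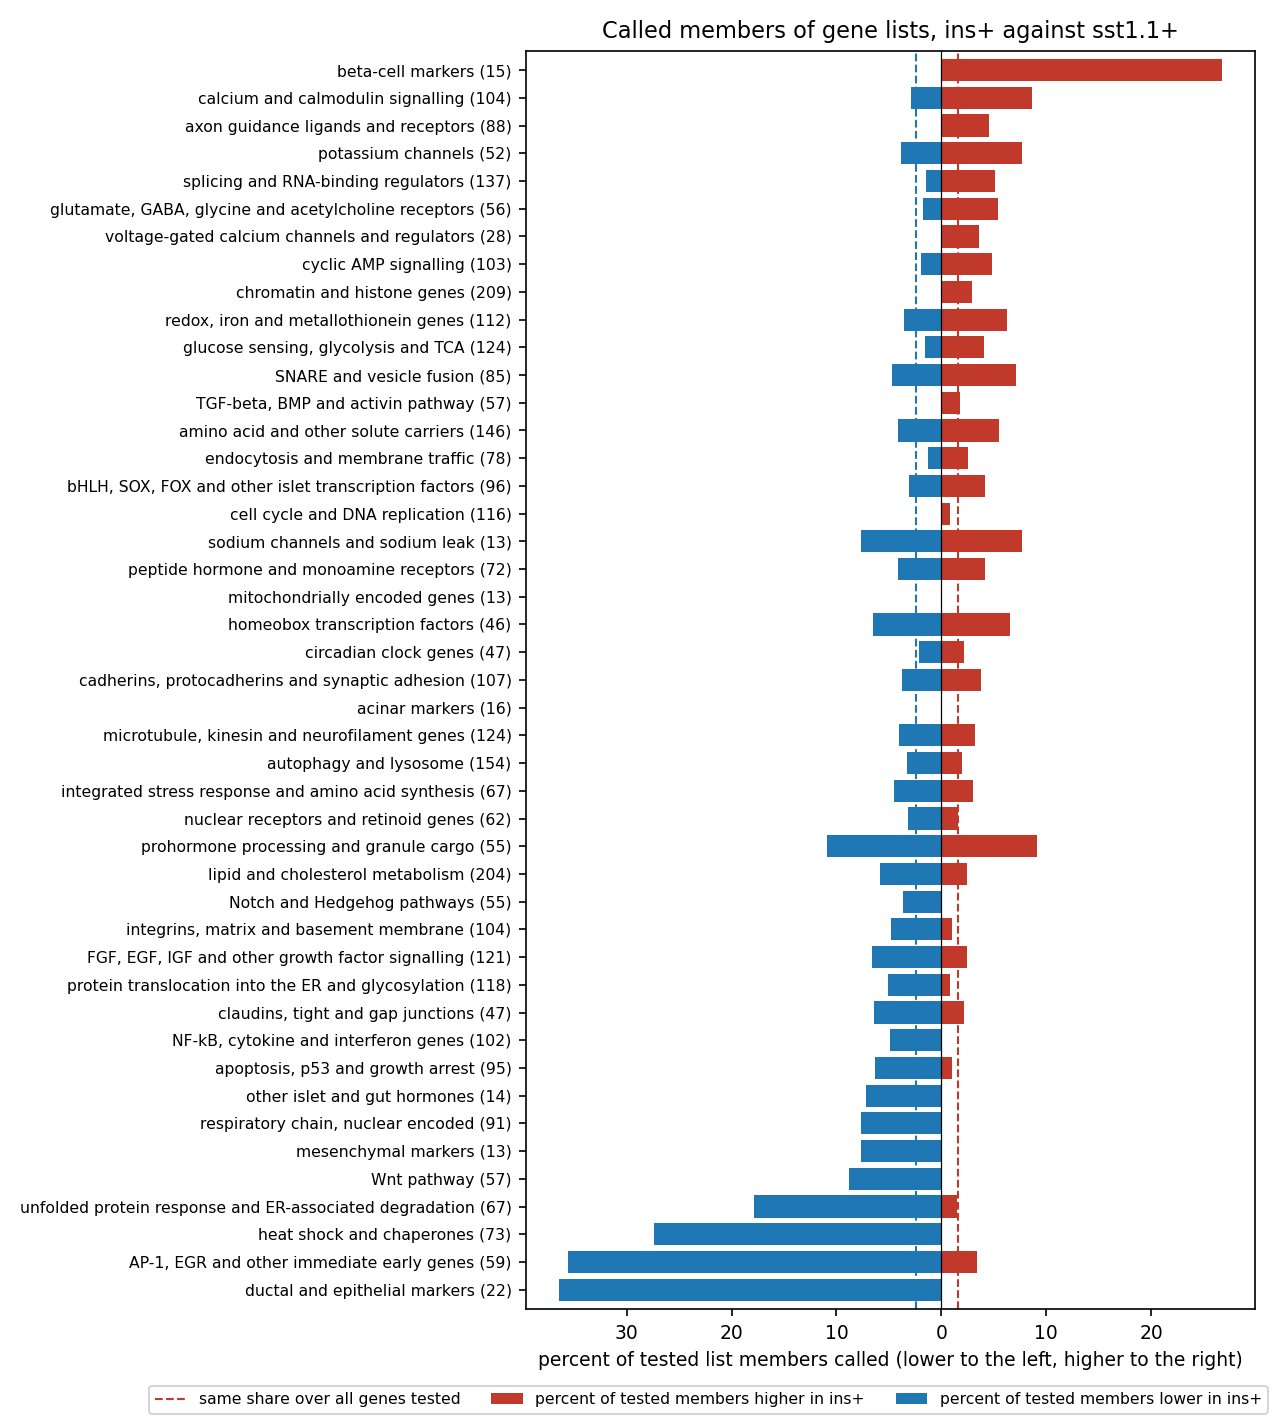
For each gene list shown, all with at least 10 tested members (number in parentheses), the percent of tested members called higher in ins+ (right) and lower (left), with dashed lines at the shares over all genes tested, 1.61 and 2.42%. Ductal markers, immediate early genes and heat shock genes reach furthest to the left and beta-cell markers furthest to the right. The beta-cell list includes ins, whose reporter was used in the sort.

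Genes of RNA processing and chromatin gave few calls, of which more were higher than lower in the fit of all libraries. Over all genes 1.61% were higher and 2.42% lower. Of 137 splicing and RNA-binding genes, 7 were higher (5.11%) and 2 lower (1.46%, median 0.34). The neuronal splicing factor gene rbfox3 stood at 60.3 and 52.0 CPM in ins+ and 2.86, 4.23 and 4.11 CPM in sst1.1+ (15.06-fold, adjusted p = 4.72e-05), and stau2, of RNA transport, at 305 and 375 CPM in ins+ and 136, 162 and 168 CPM in sst1.1+ (2.19-fold, adjusted p = 0.00275). The helicase gene ddx5 was lower at 248 and 285 CPM in ins+ and 706, 656 and 515 CPM in sst1.1+ (2.35-fold, adjusted p = 0.0036). Of 209 chromatin genes 6 were higher (2.87%) and 0 lower (median 0.27). Among the higher was hmgb1a at 564 and 637 CPM in ins+ and 328, 347 and 358 CPM in sst1.1+ (1.74-fold, adjusted p = 0.00581). The call of hmgb1a was lost without ins+ replicate 2 (adjusted p = 0.0697). Leaving out a library moved the calls for splicing and RNA binding to 4 higher and 2 lower without ins+ replicate 1, 2 higher and 2 lower without ins+ replicate 2, 4 higher and 2 lower without sst1.1+ replicate 1, 3 higher and 2 lower without sst1.1+ replicate 2 and 12 higher and 3 lower without sst1.1+ replicate 3. Calls for chromatin numbered 2 higher and 0 lower without ins+ replicate 1, 0 higher and 0 lower without ins+ replicate 2, 3 higher and 0 lower without sst1.1+ replicate 1 and 3 higher and 0 lower without sst1.1+ replicate 2. The actin-binding gene tagln2 stood at 6.98 and 1.47 CPM in ins+ and 79.8, 99.9 and 64.5 CPM in sst1.1+ (19.1-fold, adjusted p = 0.0032).

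By abundance, the largest rise after ins and malat1 was ppdpfb, a gene named for pancreatic progenitor differentiation, at 9702 and 10359.7 CPM in ins+ and 2803, 2549 and 2772 CPM in sst1.1+ (3.70-fold, 1.89 ± 0.12 as log2 fold change ± SE, adjusted p = 6.59e-06). The sialomucin gene cd164 stood at 854 and 885 CPM in ins+ and 214, 148 and 176 CPM in sst1.1+ (4.84-fold, adjusted p = 1.42e-05), the urea cycle gene otc at 41.8 and 32.4 CPM in ins+ and 1.71, 0.732 and 5.04 CPM in sst1.1+ (14.9-fold, adjusted p = 0.00822), and ttpa, of vitamin E transport, at 121 and 148 CPM in ins+ and 17.2, 6.75 and 13.3 CPM in sst1.1+ (10.8-fold, adjusted p = 0.000162). The noncoding RNA malat1 stood at 38486 and 39192 CPM in ins+ and 24009, 26168 and 25848 CPM in sst1.1+ (1.53-fold, adjusted p = 0.00776). The call of malat1 was lost without ins+ replicate 2 (adjusted p = 0.0683). Among the lower genes the chitinase-family gene chia.6 stood at 2.94 and 1.06 CPM in ins+ and 60.3, 48.7 and 50.5 CPM in sst1.1+ (26.3-fold, adjusted p = 0.000112) and the RNA-binding gene rbpms2b at 1.05 and 2.11 CPM in ins+ and 45.7, 30.7 and 31.4 CPM in sst1.1+ (22.8-fold, adjusted p = 0.000218).

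The summed markers of several other cell types were larger in sst1.1+, and those of others overlapped between the groups or were low. Over all genes tested, 1.61% were called higher and 2.42% lower. Ductal and epithelial markers summed to 464 and 445 CPM in ins+ and 1230.2, 1545 and 1597 CPM in sst1.1+, and 8 of 22 were lower, among them elf3 at 1.45 and 16.6 CPM in ins+ and 316, 436 and 253 CPM in sst1.1+ (37.4-fold, adjusted p = 0.00618). Immune markers summed to 104 and 79.5 CPM in ins+ and 267, 204 and 318 CPM in sst1.1+, with 1 of 8 lower and 8 of 24 at 0 counts in all 5 libraries. The defining leukocyte gene ptprc stood at 0 and 0.0587 CPM in ins+ and 0.974, 0 and 0 CPM in sst1.1+. With single libraries left out, the calls for immune markers were 0 higher and 0 lower without ins+ replicate 1 and 0 higher and 0 lower without ins+ replicate 2. Mesenchymal markers summed to 34.9 and 21.0 CPM in ins+ and 104, 142 and 198 CPM in sst1.1+, with 1 of 13 lower; that 1 is tagln2, which matched the listed symbol through the capital symbol TAGLN and is a different family member. Acinar markers summed to 32.16 and 75.8 CPM in ins+ and 207, 49.8 and 66.8 CPM in sst1.1+ with no call. Endothelial markers summed to at most 2.93 CPM and erythrocyte markers to at most 5.44 CPM in any library, and the endothelial gene pecam1 had 0 counts in all 5. Alpha-cell markers summed to 18684 and 11372 CPM in ins+ and 33715, 66035 and 65026 CPM in sst1.1+, with 2 of 7 lower (gcga and gcgb). Called members for alpha-cell markers came to 0 higher and 0 lower without ins+ replicate 2. Neural and glial markers summed to 481 and 484 CPM in ins+ and 604, 602 and 707 CPM in sst1.1+, with 2 of 9 lower (plp1b and tubb5). The call of plp1b was lost without ins+ replicate 1 (adjusted p = 0.0727), and the call of tubb5 was lost without ins+ replicate 2 (adjusted p = 0.06) and with limma-voom (adjusted p = 0.0727). Hepatocyte and gut markers summed to 152 and 184 CPM in ins+ and 198, 132 and 168 CPM in sst1.1+, and 0 of 8 were lower. These sums were larger in every sst1.1+ library than in either ins+ library for the ductal, immune, alpha-cell and neural lists. Their part in the calls above was not tested. The mesenchymal sums count tagln2, which gave most of the sum in sst1.1+ replicates 1 and 2, so they are not compared in this way.

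Some genes were detected in 1 group only. With 0 counts in both ins+ libraries and at least 1 CPM in every sst1.1+ library there were 82 genes, of which 32 were called, and with the groups exchanged 30, of which 5 were called. The sphingosine 1-phosphate receptor gene s1pr1 had the highest level of these at 0 counts in both ins+ libraries and 60.1, 81.9 and 72.2 CPM in sst1.1+. Set against the floor of 3 counts per library it was at least 439-fold lower in ins+. The call of s1pr1 was lost with limma-voom (adjusted p = 0.114). The carbonic anhydrase gene ca4a stood at 0 and 0 CPM in ins+ and 11.9, 7.68 and 13.1 CPM in sst1.1+ and the receptor gene notch1b at 0 and 0 CPM in ins+ and 4.30, 9.39 and 3.05 CPM in sst1.1+, and both were called under every alternative. In the reverse direction the highest mean was 5.98 CPM, and lig4, of DNA end joining, stood at 3.19 and 6.46 CPM in ins+ and 0, 0 and 0 CPM in sst1.1+ (adjusted p = 0.0201). The call of lig4 was lost without ins+ replicate 2, sst1.1+ replicate 1 or sst1.1+ replicate 2 (adjusted p = 0.0665, 0.06 and 0.0562) and with limma-voom (adjusted p = 0.108) and when the 2 groups were fitted alone. The sst1.1+ libraries were the deeper ones, so the 82 and 30 genes were found at different depths.

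Zebrafish keep many duplicated genes from an ancient genome duplication. Among 1493 pairs of tested symbols that differ only in a last a or b, 142 had 1 member called, 4 had both higher, 6 had both lower and 1 had opposite calls. The other 1340 pairs had no call. Over all genes tested 4.03% were called in either direction, and whether pairs differ from that share was not tested. Both members of slc43a2a and slc43a2b were higher, and so were prkar1aa and prkar1ab, genes of a regulatory subunit of protein kinase A (2.27-fold, adjusted p = 0.0156 and 1.95-fold, adjusted p = 0.0331). The call of prkar1aa was lost without ins+ replicate 2, sst1.1+ replicate 1 or sst1.1+ replicate 2 (adjusted p = 0.107, 0.0554 and 0.0638), and the call of prkar1ab was lost without ins+ replicate 1, ins+ replicate 2, sst1.1+ replicate 1, sst1.1+ replicate 2 or sst1.1+ replicate 3 (adjusted p = 0.107, 0.131, 0.0773, 0.104 and 0.0643). Both members of gcga and gcgb, of scg2a and scg2b and of mcl1a and mcl1b were lower. Some such pairs, such as chka and chkb, are separately named genes and not duplicates. The opposite pair was the immunophilin genes fkbp1aa, at 625 and 671 CPM in ins+ and 426, 384 and 447 CPM in sst1.1+ (1.55-fold, adjusted p = 0.024), and fkbp1ab, at 3.64 and 1.47 CPM in ins+ and 17.2, 25.7 and 15.198 CPM in sst1.1+ (7.55-fold, adjusted p = 0.0121). The call of fkbp1aa was lost without ins+ replicate 1, ins+ replicate 2, sst1.1+ replicate 1 or sst1.1+ replicate 2 (adjusted p = 0.0704, 0.162, 0.0649 and 0.102) and when the 2 groups were fitted alone, and the call of fkbp1ab was lost without ins+ replicate 2 (adjusted p = 0.0764) and with limma-voom (adjusted p = 0.097).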

How the data were processed

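The deposited table holds the authors' raw counts for each gene. The submitters' processing notes name Trim Galore, HISAT2, featureCounts and the build GRCz11. The sources used here give neither versions nor the annotation release or strand setting, so reads of near-identical or overlapping genes (such as hsp70.1 and hsp70.2) are uncertain. Of 31953 gene rows, the ERCC and EGFP rows excluded, 16418 passed edgeR's default filter by group. Counts were fitted with edgeR 4.0.16 (R 4.3.3; TMM, quasi-likelihood F-test, all 8 libraries in 3 groups, 5 residual degrees of freedom), with Benjamini-Hochberg adjustment at 0.05. SE is the log2 fold change over the square root of F. The 53 gene lists, the members named and the tests were chosen with earlier results of these data known. Most lists without a count in the text appear in the plot of lists with at least 10 tested members, and 1 list of that size is not reported here. Naming followed several rules. The 20 largest rises and falls by fold and the 10 largest by CPM difference were taken from called genes separated between the groups. These had to reach 20 CPM on average where higher and not be known by a code. Also named were up to 5 called members per list and direction by p, genes absent from 1 group, opposite paralog pairs, and set hormone and identity genes. The 20 CPM limit did not apply to these, and absent and set genes did not have to be called. Among the genes outside these rules, named after their values were seen, are gck, ghrl, gip, ptprc, pecam1, chka, chkb, chgb and itga6a.

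List symbols were matched, in any letter case, to the deposited name or to the symbol of the gene's identifier in a names table. A narrower match, in exact case for the table's symbols, was tried after the calls had been seen: 8 of 53 lists changed, no count by more than 1, and the called memberships fell from 329 to 320. The planned match was kept. An error in the pattern that recognises clone codes, which had kept potassium channel names from being named or paired, was also corrected after results had been seen.

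The scripts were tested on counts simulated from the means, depths and spread of these libraries, with 50 changed genes per size at all expression levels. The edgeR test recovered 4 of 50 changes of 2-fold, 19 of 4-fold, 21 of 8-fold and 33 of 16-fold, with 3 false calls. DESeq2 recovered 8, 24, 27 and 37, with 64 false calls. With limma-voom 5, 16, 16 and 24 were recovered, with 1 false call. The simulated spread was edgeR's own estimate, so these figures do not rank the tools. A gene that was not called therefore need not be unchanged. The alternatives were RLE factors, library totals, TMM without hormone and mitochondrial genes, DESeq2 1.42.0, limma-voom (limma 3.58.1) with quality weights, 2 filters, a fit of the 2 groups alone, a replicate block, thinning to the smallest total, and each of the 5 libraries left out. A floor of 3 counts corresponded to 0.0988 to 0.177 CPM and covers counting error only. No genome or sequence table was used here, so neither coordinates nor sequences are given.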

Additional observations from a re-analysis of the deposited data

Results flagged for a closer look

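EGFP lay outside the genes tested, and its transcript was present in the ins+ libraries, which were sorted without the sst1.1 reporter. It stood at 198 CPM in ins+ replicate 1 and at 280 CPM in ins+ replicate 2 (3972 and 4767 counts), above the floor of 3 counts, beside a mean of 7528 ± 945 CPM in sst1.1+ (SD, n = 3).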

How the results depend on the processing

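The 662 calls (265 higher, 397 lower) became 1659 (636 and 1023) with DESeq2, which included all 662, and 1276 (566 and 710) of 22692 genes without a filter on low counts. The fit of the 2 groups alone gave 412 (151 and 261). With limma-voom there were 615, of which 353 were higher and 262 lower, so the share of calls that were higher was 57.4% in place of 40%. With each library left out, calls ran from 330 to 757, higher calls from 91 to 354 and lower calls from 239 to 411; the fewest came without ins+ replicate 2, where 27.6% were higher. Scaling by RLE, by library totals or without hormone genes gave 639 to 664 calls and moved the median of all genes by at most 0.03 on the log2 scale. Of 270 named genes called, 113 kept their call in all 15 alternatives, 86 lost it in 1 to 3 and 71 in 4 or more, and 0 reversed.

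Whether equal replicate numbers mark paired samples is not stated. Deviations of same-numbered libraries correlated at -0.0291 to 0.0125, and those of differently numbered libraries of unlike groups at -0.0393 to 0.0402. With 2 ins+ libraries the deviations of these are mirror images, so the correlations cannot decide whether samples are paired. A replicate block gave 648 calls, 528 of them shared with the fit without it. With at most 3 counts per library in place of 0, 142 genes were absent in ins+ and 43 in sst1.1+.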

Other observations

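Genes high in sst1.1+ stood at unlike fractions of their sst1.1+ mean in the ins+ libraries. In ins+ replicates 1 and 2 the fraction was 19.6 and 15.4% for sst1.1, 23.9 and 16.1% for dkk3b, 26.2 and 20.6% for HHEX, and 29.5 and 16.8% for pnoca. It was 34.2 and 25.3% for gcga and 11.5 and 14.3% for pyyb. It was far smaller for EGFP (2.63 and 3.72%), bag3 (2.45 and 4.1%), elf3 (0.431 and 4.96%) and s1pr1 (0 counts in both). The somatostatin genes sst1.2 (86.6 and 84.9%) and sst2 (152% in both) were near or above their sst1.1+ mean. For sst2 that mean covers a wide spread, at 2.39, 0.761 and 0.888% of gene counts in the sst1.1+ libraries. Both ins+ libraries, at 2.09%, lay inside that range.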
